A study of Mus musculus with 10 samples.

Results

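Trem2 lies on mouse chromosome 17, and 8 other genes of that chromosome were followed here: Olfr110, Olfr111, H2-M3, H2-T24, Glo1, Apobec2, Treml1 and Treml2. They were chosen by the measured genotype difference, Trem2-/- minus WT over all 10 arrays, and by their place on the chromosome. They are 8 of the 19749 genes that a single-gene probe names on the array, and 8 of the 932 such genes on chromosome 17. The first 6 had passed the test of the genotype difference, which calls 0.259% of all genes tested, and Treml1 and Treml2 had not. All 8 stood above the filter on dim genes and were tested with 10792 genes in all, 550 of them on chromosome 17. Olfr110 passed that filter through WT arrays only, so the filter itself favours a lower level in Trem2-/-. Values of the genotype difference are therefore descriptions, because they chose the genes.

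RNA came from microglia, the resident macrophages of the brain, taken by FACS from male mice that were 8 to 12 weeks old. The groups were Trem2-/- mice on cuprizone (2 arrays), Trem2-/- mice in recovery (2 arrays), Trem2-/- controls (1 array), and the same 3 groups of WT mice (2, 2 and 1 arrays). Both genotypes carry the strain label C57BL/6. Cuprizone, a copper chelator that kills oligodendrocytes, was fed at 0.2% of the diet for 4 or 12 weeks, and recovery meant 2 further weeks on normal food. Each genotype thus gave 5 arrays, 1 for each of 5 diet conditions (control, 4 weeks, 12 weeks, 4 weeks then recovery, 12 weeks then recovery). The labels name no separate animals or pools, so p-values measure only the spread between these samples, which may be technical. The labels state neither the deleted part of Trem2, nor the stem cells in which the allele was made, nor the number of backcrosses.

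Trem2 is a receptor of microglia that senses lipids and the debris of myelin. It sits in a cluster of related receptor genes that also holds Treml1 and Treml2. The same chromosome carries the mouse major histocompatibility complex, with many class I genes, and next to it a cluster of olfactory receptor genes. A gene-targeted allele is often made in stem cells of one mouse strain and bred onto another, and DNA of the first strain can then stay around the targeted gene. Strain differences in that flanking DNA accompany the mutation in every tissue and diet. Flanking DNA, a local effect of the targeted allele on its neighbours and the loss of Trem2 function cannot be told apart with 1 mutant line.

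Median intensities of the 10 arrays lay between 37.6 and 39.3. By sample number, the first 6 arrays are both controls and everything titled 4 weeks, and the last 4 are those titled 12 weeks. They are called the first and second run here, but the labels used name no run or batch. Feeding time and run cannot be told apart, and the second run holds no control. Correlations between arrays were 0.983 to 0.991 within runs (21 pairs) and 0.974 to 0.983 across them (24 pairs). The Trem2-/- library titled 12 weeks on cuprizone has a time label of 4 weeks and was counted by its title. Levels below are log2 intensities, and genotype differences are Trem2-/- minus WT within the same diet condition. Background was not measured, so the table's median of 5.27 serves as a mark of dim signal.

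The level of Trem2 matched the genotype label of every library. It read 7.53 in the Trem2-/- control, 7.78 and 7.47 after 4 and 12 weeks of cuprizone, and 7.85 and 7.26 in recovery from 4 and 12 weeks. The WT values were 10.72 in the control, 10.81 and 10.70 on cuprizone, and 10.67 and 10.66 in recovery. Every Trem2-/- library was far below every WT library, with a mean difference of -3.13 (SD 0.22, n = 5 conditions), or 0.114 times the WT intensity. The Trem2-/- arrays were still above the table's median, and the labels do not say whether the probe set reaches outside the deleted part. Known markers of microglia were present in both genotypes. Of 11 tested, only Trem2 was called between genotypes, and their summed intensity was 26894 to 31805 in Trem2-/- arrays and 24571 to 34229 in WT arrays.

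Olfr110 and Olfr111 encode olfactory receptors, G-protein-coupled receptors known for odour detection in sensory neurons of the nose. They are adjacent genes in the RefSeq gene table of assembly GRCm38.p6. Olfr111 had the largest difference of the 8 genes. It read 4.98, 5.34, 5.28, 5.16 and 4.22 in Trem2-/- arrays (control, 4 weeks, 12 weeks, 4 weeks then recovery, 12 weeks then recovery). In the same order it read 7.78, 7.98, 8.32, 6.998 and 7.41 in WT arrays. The groups did not overlap: 1.66 log2 units separated the highest Trem2-/- array from the lowest WT array. Only 2 of 5 Trem2-/- arrays were above the table's median, against 5 of 5 WT arrays. The mean was 4.99 ± 0.46 in Trem2-/- and 7.70 ± 0.51 in WT (SD, n = 5 each), a mean difference of -2.71 (SD 0.53), or 0.153 times the WT intensity. Because the Trem2-/- signal lay near that median, the ratio may be compressed by background, which was not measured.

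Olfr110 was dimmer and differed less. Its Trem2-/- levels were 4.56, 4.94, 4.50, 4.63 and 4.57 in the same order of conditions, all below the table's median. Its WT levels were 5.61, 6.27, 5.62, 4.98 and 5.12, of which 3 were above that median. The groups came within 0.04 log2 units of each other without overlapping, and both WT recovery arrays were the low ones. The mean difference was -0.88 (SD 0.41, n = 5). As a ratio this was 0.544 times the WT intensity. The ratio may be compressed, since 5 of 5 Trem2-/- arrays and both WT recovery arrays lay below that median. Probe sequences were not used, so cross-hybridization between Olfr110 and Olfr111 was not tested.

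The 300 bases around the start of each gene (250 before, 50 after, RefSeq, GRCm38.p6) are shown for the adjacent olfactory receptor pair, which were lower together in Trem2-/- arrays, and for Glo1 and Apobec2, the pair with the largest higher values. Capitals mark matches to 4 searched motifs. The TATA box (TATAAA) was searched on the given strand. On both strands the search covered the CCAAT box, then the GC box, spelled GGGCGG, and finally the PU.1-type site of ETS factors, spelled AGGAAGT. The windows are chr17:37492218-37492517 on the plus strand for Olfr110, chr17:37529707-37530006 on the plus strand for Olfr111, chr17:30612610-30612909 on the minus strand for Glo1 and chr17:48432679-48432978 on the minus strand for Apobec2.
Olfr110: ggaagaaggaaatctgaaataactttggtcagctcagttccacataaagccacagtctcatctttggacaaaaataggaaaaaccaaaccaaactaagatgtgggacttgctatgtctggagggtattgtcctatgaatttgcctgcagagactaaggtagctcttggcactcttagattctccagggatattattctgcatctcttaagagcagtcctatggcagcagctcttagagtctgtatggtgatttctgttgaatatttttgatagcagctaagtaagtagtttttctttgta
Olfr111: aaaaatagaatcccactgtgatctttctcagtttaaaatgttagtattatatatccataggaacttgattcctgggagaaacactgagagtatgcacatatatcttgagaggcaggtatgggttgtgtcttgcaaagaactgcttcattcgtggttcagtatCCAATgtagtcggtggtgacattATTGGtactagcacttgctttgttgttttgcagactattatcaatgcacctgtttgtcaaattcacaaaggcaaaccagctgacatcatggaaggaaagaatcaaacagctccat
Glo1: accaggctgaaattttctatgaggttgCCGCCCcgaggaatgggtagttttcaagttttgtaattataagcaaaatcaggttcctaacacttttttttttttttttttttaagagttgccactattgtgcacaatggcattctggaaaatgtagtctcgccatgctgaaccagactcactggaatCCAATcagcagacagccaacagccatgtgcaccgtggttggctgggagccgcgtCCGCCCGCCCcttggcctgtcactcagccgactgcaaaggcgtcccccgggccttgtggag
Apobec2: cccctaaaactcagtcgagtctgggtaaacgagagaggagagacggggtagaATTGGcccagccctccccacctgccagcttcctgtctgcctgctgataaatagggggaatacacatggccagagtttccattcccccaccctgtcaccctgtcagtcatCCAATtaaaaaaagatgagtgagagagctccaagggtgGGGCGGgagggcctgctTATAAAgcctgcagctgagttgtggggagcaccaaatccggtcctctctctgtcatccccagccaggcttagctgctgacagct

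The Olfr111 window held CCAAT boxes 65 and 88 bases before the start, and the Olfr110 window held none of the 4 motifs. The Apobec2 window held a TATA box 34 bases before the start, a GC box at 51 and CCAAT boxes at 89 and 198. In the Glo1 window GC boxes matched at 7 and 11 bases, which overlap, and at 223, and a CCAAT box at 65. The H2-M3 window, not printed, held CCAAT boxes at 21, 36 and 129 bases, and the Treml1 window held no match. Among 32851 RefSeq windows of the same length, the TATA box occurred in 8.32%, the CCAAT box in 37.4%, the GC box in 35.7% and the PU.1-type site in 9.35%. A window was found for 6 of the 8 genes. These matches describe letters of the reference sequence and not binding.

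**Figure D1:**
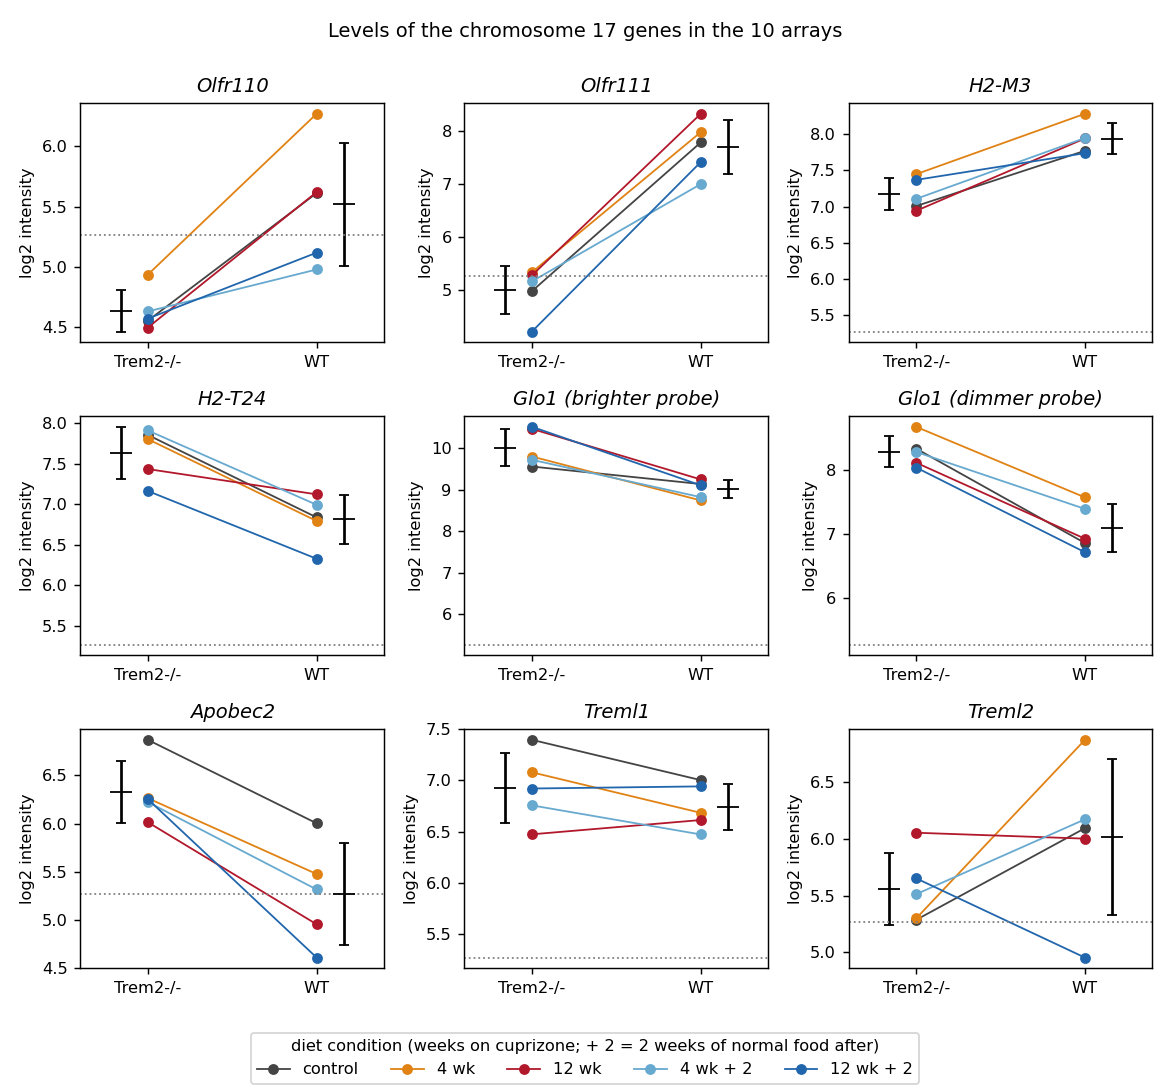
Log2 intensity of the 8 genes in the 10 arrays, Trem2-/- on the left and WT on the right of each panel, 1 line for each of 5 diet conditions. Black bars give the mean and SD (n = 5), the dotted line is the table's median of 5.27, and Glo1 has a panel for each of its probes. Olfr111 separates by 1.66 log2 units, while Treml1 and Treml2 overlap.

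H2-M3 and H2-T24 are class I genes of the histocompatibility complex with genotype differences in opposite directions. H2-M3 encodes a nonclassical class I molecule that presents N-formylated peptides, as bacteria and mitochondria make, to T cells. Its Trem2-/- levels were 7.01, 7.45, 6.94, 7.11 and 7.37, against WT levels of 7.77, 8.29, 7.94, 7.95 and 7.74. Each Trem2-/- array was below each WT array, with a gap of 0.29. The mean was 7.17 ± 0.22 in Trem2-/- and 7.94 ± 0.22 in WT (SD, n = 5 each), a difference of -0.76 (SD 0.24) or 0.589 times the WT intensity.

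H2-T24 is another nonclassical class I gene, of the T region. It read 7.86, 7.80, 7.43, 7.91 and 7.16 in Trem2-/- arrays and 6.84, 6.79, 7.12, 6.99 and 6.33 in WT arrays. It was higher in Trem2-/- in each of 5 conditions, with groups 0.04 apart and the smallest difference, 0.31, after 12 weeks of cuprizone. The mean difference was 0.82 (SD 0.29, n = 5), or 1.76 times the WT intensity. Class I genes resemble one another in sequence, and the probe sequences were not used here, so cross-hybridization between them was not tested.

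None of the other class I genes tested on chromosome 17 was called. Of 31 listed, 19 were on the array through a single-gene probe and 6 were tested: 1 was called higher in Trem2-/- (H2-T24), 1 lower (H2-M3) and 4 neither. Those 4 were H2-Q2 at 0.01, H2-Q4 at 0.08, H2-Q5 at -0.04 and H2-T10 at 0.21. The median of the 6 was 0.05, against -0.0018 over all genes tested. The partners that load peptides onto class I molecules, such as B2m, Tap1, Tapbp and Nlrc5, had 0 of 11 genes called and differences of -0.28 to 0.04. Over all genes, limma called 28 of 10792 in this comparison (0.259%), 8 higher and 20 lower in Trem2-/-, and 1162 had an unadjusted p under 0.05.

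Glo1 encodes glyoxalase 1, which with glutathione detoxifies methylglyoxal, a by-product of glycolysis. A segment that holds Glo1 is known to be duplicated in some inbred mouse strains. Its brighter probe read 9.56, 9.80, 10.46, 9.72 and 10.51 in Trem2-/- arrays, against 9.13, 8.74, 9.24, 8.82 and 9.10 in WT arrays. The groups were 0.31 apart, and the control condition had the smallest difference, 0.42. The mean was 10.01 ± 0.45 in Trem2-/- and 9.01 ± 0.22 in WT (SD, n = 5 each), a difference of 1.002 (SD 0.38), or 2.00 times the WT intensity.

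A second, dimmer probe of Glo1 gave the same direction. It read 8.33, 8.67, 8.11, 8.28 and 8.03 in Trem2-/- arrays and 6.85, 7.57, 6.92, 7.39 and 6.71 in WT arrays. These groups were 0.47 apart, with a mean difference of 1.20 (SD 0.22, n = 5), or 2.29 times the WT intensity, and here the control condition had the largest difference, 1.48. Of the 20 probes numbered next to the dimmer one, 19 name genes of chromosome 2 and 0 name genes of chromosome 17. For the brighter probe 19 of 20 name genes of chromosome 17. The array's numbers follow chromosomes in these stretches, and whether the dimmer probe reads Glo1 itself or a copy elsewhere was not tested.

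The neighbours in the variable segment were mostly dim. Btbd9, the tested gene next to Glo1, averaged 0.39 (SD 0.29), was higher in Trem2-/- in every condition by 0.12 to 0.86, overlapped between genotypes and was not called. Dnah8, an axonemal dynein, had levels of 3.50 ± 0.11 in Trem2-/- and 3.33 ± 0.08 in WT, below the filter, and did not overlap (difference 0.18). Glp1r, an incretin receptor, differed by -0.07 at similarly dim levels. Among 8 tested genes of methylglyoxal handling, Glo1 was the 1 called, and the others ranged from -0.18 to 0.22. Hagh, which encodes glyoxalase 2 and also lies on chromosome 17, differed by -0.12 (SD 0.12).

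Apobec2 belongs to the AID/APOBEC family of cytidine deaminases, is known from striated muscle, and lies close to Trem2. It read 6.87, 6.26, 6.01, 6.22 and 6.25 in Trem2-/- arrays, all above the table's median, and 6.00, 5.48, 4.96, 5.32 and 4.61 in WT arrays, of which 3 were above it. The groups nearly touched, with a gap of 0.01: the WT control was almost as bright as the dimmest Trem2-/- array. Within each condition the Trem2-/- array was higher, by 0.79 to 1.64. The mean difference was 1.05 (SD 0.35, n = 5), or 2.07 times the WT intensity. The other tested family members were not called: Apobec1 differed by -0.41 and Apobec3 by 0.00. Markers of striated muscle had 0 of 4 tested genes called, with sums of 376 to 460 in Trem2-/- arrays and 368 to 455 in WT arrays.

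Treml1 and Treml2, the nearest relatives of Trem2 on the array that were tested, did not separate by genotype. Treml1 encodes a receptor of platelets and megakaryocytes. It read 7.40, 7.08, 6.47, 6.76 and 6.92 in Trem2-/- arrays and 7.002, 6.68, 6.61, 6.47 and 6.94 in WT arrays, a difference of 0.18 (SD 0.25, n = 5). Platelet markers had 0 of 4 tested genes called between genotypes, with sums of 1250 to 2547 in Trem2-/- and 1206 to 2521 in WT. Pf4 was by far the brightest of them, at a mean of 10.21 in Trem2-/- and 10.25 in WT. It is also listed as a border macrophage marker, so the sums do not measure platelets alone. Treml2 encodes a receptor found on B cells, neutrophils and macrophages. It read 5.29, 5.30, 6.06, 5.51 and 5.65 in Trem2-/- arrays and 6.10, 6.88, 6.00, 6.17 and 4.95 in WT arrays, a difference of -0.46 (SD 0.87, n = 5). The sign of the Treml2 difference was not the same in all conditions, and its WT levels spanned more than its Trem2-/- levels. B-cell markers had 0 of 2 tested genes called, with sums of 186 to 310 in Trem2-/- and 158 to 251 in WT. Neutrophil markers had 0 of 7 tested genes called, 6 of them with negative differences and a median of -0.47, and sums of 208 to 6643 in Trem2-/- and 218.5 to 13250 in WT. Their part in the Treml2 difference was not tested.

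**Figure D2:**
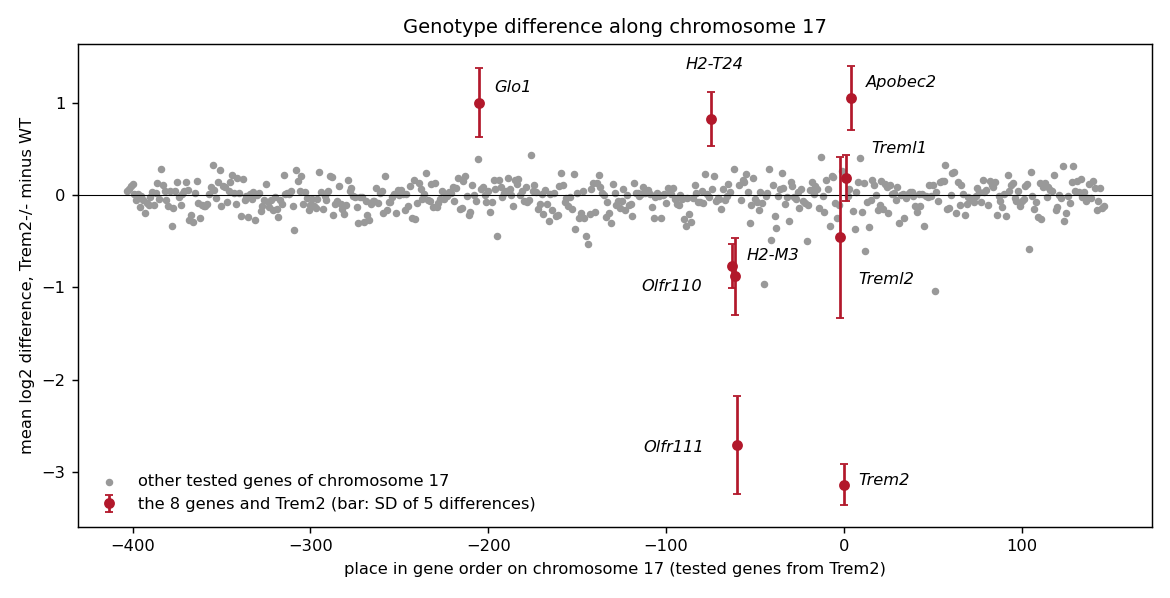
Mean genotype difference (log2, Trem2-/- minus WT) of the 550 tested genes of chromosome 17 against their place in gene order, counted in tested genes from Trem2. Red points are Trem2 and the 8 genes with the SD of 5 differences, and grey points are the others. Most of the genes between Glo1 and Apobec2 lie near 0.

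The places of these genes along the chromosome differ widely. In the RefSeq order of 1059 protein-coding genes of chromosome 17, Treml1 is next to Trem2 with 0 genes between, Treml2 has 1 between and Apobec2 has 3. Olfr111, Olfr110, H2-M3 and H2-T24 come before Trem2, with 153, 154, 163 and 208 protein-coding genes between, and Glo1 is farthest with 403. Of the 550 tested genes of the chromosome, 7 were called (1.27%): Trem2 and the 6 of the 8 genes named above, with no other gene. On the 21 other chromosomes, the X, Y and mitochondrial ones included, 21 of 10218 were called (0.206%), and the highest share on one of them was 0.662%. These shares describe the choice of the genes and are no test of it. The calls depend on the fit: of the 6 genes, Olfr111 was called under each of 14 alternatives and was the only one called with no condition block, where 8 genes in all were. Leaving out the array pair of 1 diet condition left 2 to 5 of the 6 called, and counting the library with conflicting labels as 4 weeks left 2, Olfr111 and H2-T24.

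Genes with differences were scattered among genes without. From Glo1 to Apobec2 in gene order 210 genes were tested, 7 of them called (3.33%), while 201 (95.7%) differed by less than 0.5 log2 units. Before Glo1 0 of 198 genes were called by limma, and after Apobec2 0 of 142. Glo1 and Apobec2 are the outermost called genes, so their own genotype values set these bounds and the counts inside and outside them are a description. All 5 Trem2-/- arrays lay below all 5 WT arrays for 63 of 10792 genes (0.584%) and above them for 45 (0.417%). On chromosome 17 the genotypes did not overlap for 14 of 550 genes (2.55%), among them the 7 called, against 94 of 10218 (0.92%) elsewhere. The remaining 7, named after their values were seen, were Vegfa at -0.97 (SD 0.59), Vars2 at -0.26, Mdfi at -0.25, Telo2 at -0.22, Rps18 at -0.21, Slc9a3r2 at 0.28 and Fer at 0.32. Vegfa, a growth factor for blood vessels, was the 1 of these 7 with a difference as large as those of the 6 called genes.

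None of the nearest neighbours of Trem2 other than Apobec2 was called. Of 7 measured neighbours outside the 8 genes, 3 were tested and 0 were called or free of overlap. B430306N03Rik differed by 0.27 (SD 0.36), Nfya, a subunit of the factor that binds CCAAT boxes, by -0.01 (SD 0.14), and Oard1, an enzyme that removes ADP-ribose, by 0.07 (SD 0.44). Trem1, Trem3, Treml4 and Tspo2 were too dim to test, and Treml4 showed the largest value of these at 0.45 (SD 0.21). Apobec2 thus differed while the 2 tested genes between Treml1 and it, Nfya and Oard1, did not pass.

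Most neighbours of the olfactory receptor pair and H2-M3 were too dim to test. Around Olfr110 and Olfr111, Olfr108, Olfr109, H2-M2, Olfr112, Olfr113 and Olfr114 were all below the filter, with differences of -0.57 (Olfr112) to 0.12. Beside H2-M3, Olfr99 was the 1 tested neighbour of 6 measured, at 0.28 (SD 0.25). Beside H2-T24, 5 of 6 were tested and 0 called, namely Ppp1r10 at 0.23, Abcf1 at 0.01, Prr3 at -0.02, Gm6034 at 0.06 and H2-T10 at 0.21. Beyond Btbd9, the tested neighbours of Glo1 were Zfand3 at -0.07 and Mdga1 at 0.00.

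No olfactory receptor besides Olfr110 and Olfr111 was called. Of 1027 on the array, 34 were above the filter and 2 were called, both lower in Trem2-/-. The other tested ones of chromosome 17 were Olfr99 at 0.28, Olfr239 at 0.05 and Olfr91 at 0.03, and the 29 on other chromosomes lay between -0.45 and 0.41 with 0 called. Markers of olfactory sensory neurons, such as Omp and Adcy3, had 0 of 2 tested genes called. Their summed intensity over all 7 was 169 to 196 in Trem2-/- arrays and 178 to 205 in WT arrays.

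**Figure D3:**
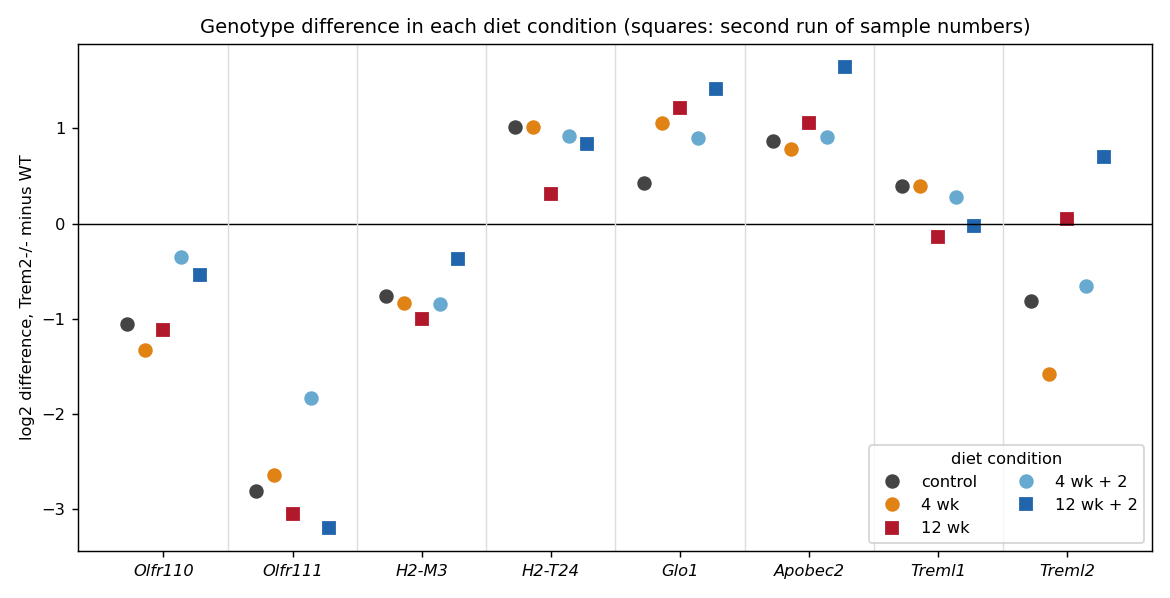
Genotype difference (log2, Trem2-/- minus WT) of each of the 8 genes in the 5 diet conditions, from the brighter probe of Glo1. Circles are arrays of the first run of sample numbers and squares those of the second, titled 12 weeks. The first 6 genes keep their sign in 5 of 5 conditions, and Treml1 and Treml2 do not.

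The question of constancy was whether the genotype difference of each gene stays the same over diets, as DNA around the targeted gene would give. Olfr110, Olfr111 and H2-M3 were lower in Trem2-/- in 5 of 5 conditions, and H2-T24, Glo1 and Apobec2 were higher in 5 of 5. Over all genes tested, 1173 (10.9%) kept 1 sign in 5 conditions. The sign is part of what chose the 6 genes. So is a small spread, because the spread of the differences over conditions is the error of the comparison that called them. The SD of the 5 differences was 0.53 for Olfr111, 0.41 for Olfr110, 0.35 for Apobec2 and 0.29 for H2-T24, against a median of 0.23 over all genes tested. H2-M3, at 0.24, stood near that median. Glo1 had an SD of 0.38 by its brighter probe and 0.22 by its dimmer one. In 96% of tested genes the SD was smaller than that of Olfr111, and in 99.3% it was smaller than that of Treml2.

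In a fit of the 6 group means, the genotype difference of none of the 8 genes was found to vary over control, cuprizone and recovery. The adjusted p of limma's F-test was 1.0 for each, and 0 of 10792 genes were called (0.0%), 116 having an unadjusted p under 0.05 and the smallest adjusted p being 0.147. The choice of the genes favours such a miss, and the intervals show how little the design fixes. The genotype difference on cuprizone minus that in the controls was -0.04 for Olfr111, with a 95% interval of -1.29 to 1.22. It was 0.06 for Apobec2 (-1.06 to 1.17), -0.15 for H2-M3 (-1.11 to 0.80) and -0.36 for H2-T24 (-1.63 to 0.92). Glo1 had the largest estimate of the 8, 0.72 (-0.62 to 2.05), and its dimmer probe gave -0.33 (-1.61 to 0.95). Olfr110 stood at -0.17 (-1.19 to 0.85). For Apobec2, Glo1, H2-M3, H2-T24 and Olfr110 each interval reaches farther to either side of its estimate than the size of the genotype difference itself.

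In recovery the genotype difference of Olfr110 was smaller in size. It was -0.35 and -0.55 in recovery from 4 and 12 weeks, against -1.33 and -1.12 on cuprizone for 4 and 12 weeks, so the values of the states did not overlap. Recovery minus cuprizone was 0.78 (95% interval -0.06 to 1.61), which did not pass (adjusted p = 1.0 in limma). By genotype, recovery minus cuprizone was -0.12 ± 0.26 (SE) in Trem2-/- and -0.89 ± 0.26 in WT. The WT value did not pass over all genes (limma adjusted p = 0.999), and the Trem2-/- level lay below the table's median in all 5 arrays. Treml2 gave the same recovery estimate, 0.78, with a wider interval (-0.67 to 2.23). For the other 6 genes it ran from 0.00 (Treml1) to 0.35 (Apobec2).

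**Figure D4:**
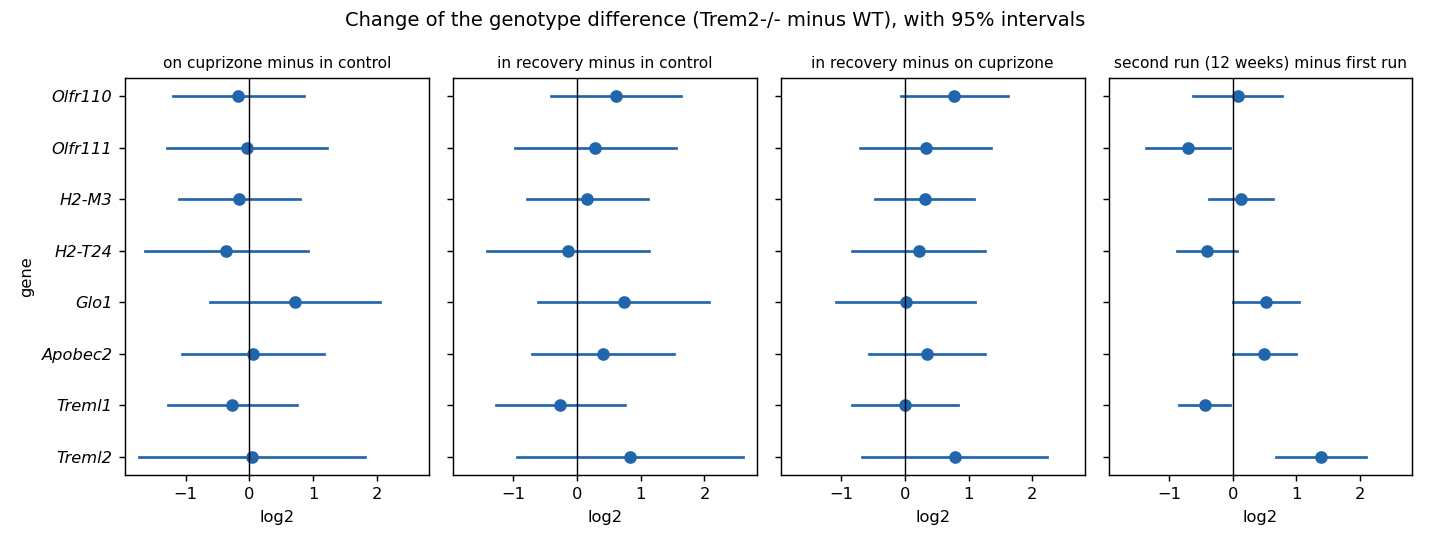
Change of the genotype difference (log2, Trem2-/- minus WT) of the 8 genes, with 95% intervals from limma. The panels give cuprizone minus control, recovery minus control, recovery minus cuprizone, and the second run of sample numbers (titled 12 weeks) minus the first. In the last panel Treml2, at 1.39, lies farthest from 0.

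Between the runs the 6 called genes kept their direction, but this was given by their choice. Each has the same sign in every condition, which is part of what chose it. Olfr111 averaged -3.12 in the second run and -2.43 in the first, Olfr110 averaged -0.83 and -0.91, and H2-M3 averaged -0.69 and -0.82 in the same order. H2-T24 averaged 0.57 in the second run and 0.98 in the first, Glo1 1.31 and 0.79, and Apobec2 1.35 and 0.85. The second run has 2 conditions and the first 3, and limma called 0 of 10792 genes for a change between runs (0.0%), with 667 at an unadjusted p under 0.05. The change, second run minus first with the controls counted in the first, was -0.70 for Olfr111 (95% interval -1.35 to -0.04) and 0.52 for Glo1 (-0.00 to 1.04). It was 0.50 for Apobec2 (0.01 to 0.99) and -0.41 for H2-T24 (-0.88 to 0.06). The adjusted p in limma ran from 0.775 to 0.784 for these genes. The dimmer Glo1 probe gave 0.10 (-0.39 to 0.59).

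The differences of the 2 TREM-like genes had opposite signs in the runs. Second-run values near 0 were those of Treml1 in recovery (-0.02) and Treml2 on cuprizone (0.05). Treml2 was lower in Trem2-/- in all 3 conditions of the first run (mean -1.02). In the second run it was higher by 0.05 on cuprizone and by 0.70 in recovery (mean 0.38). The change was 1.39 (95% interval 0.68 to 2.10), with an unadjusted p of 0.0018 in limma and an adjusted p of 0.536. Treml1 averaged -0.08 in the second run and 0.36 in the first, a change of -0.44 (-0.83 to -0.04, adjusted p = 0.775). Markers of other myeloid cells differed between 12 and 4 weeks, in a comparison that leaves out the controls. It called 2194 of 10792 genes (20.3%), 1307 of them lower at 12 weeks. Of the neutrophil markers 7 of 7 tested were called lower at 12 weeks, of the border macrophage markers 7 of 9, and of the monocyte markers 3 of 3. The neutrophil summed intensity was 366 and 208 in Trem2-/- and 238 and 218.5 in WT arrays of the second run. In the first run it was 4541 to 6643 in Trem2-/- arrays and 6057 to 13250 in WT arrays. The border macrophage sums did not follow the run in the same way. They were 1297 and 1825 in the Trem2-/- and WT controls of the first run. In its other arrays they were 3900 to 4563, and in the second run 1833 to 2084. In bulk samples fewer cells of a type and less RNA per cell cannot be told apart, and the part of these markers in the change of Treml2 between runs was not tested.

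Diet itself moved the levels of none of the 8 genes past the test. For cuprizone minus control over both genotypes limma called 1 of 10792 genes (0.00927%). Apobec2 was the member nearest to it, at -0.76 ± 0.22 (SE, adjusted p = 0.649). Its control arrays were the brightest of their genotype, 6.87 in Trem2-/- and 6.00 in WT. Treml1 followed at -0.49 ± 0.20 (adjusted p = 0.814), again with the control brightest in both genotypes. With titled duration as a block, Apobec2 stood at -0.58 (adjusted p = 0.428). The other 6 lay between -0.06 and 0.37.

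For recovery minus cuprizone limma called 0 of 10792 genes (0.0%), with 245 at an unadjusted p under 0.05. Olfr111 had the largest estimate of the 8, -0.78 ± 0.20 (SE, adjusted p = 1.0), and Olfr110 came next among those past an unadjusted 0.05, at -0.50 ± 0.20 (adjusted p = 1.0). In Olfr111 both genotypes went the same way, at -0.62 ± 0.32 in Trem2-/- and -0.95 ± 0.32 in WT. Treml2 was at -0.48 ± 0.31, and the other 5 lay between -0.19 and 0.06.

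Between 12 and 4 weeks, a comparison that includes the run, limma called 2194 of 10792 genes (20.3%), 887 higher and 1307 lower at 12 weeks. Of the 8 genes only Glo1 was called, at 0.56 ± 0.12 (SE, adjusted p = 0.0114), and that call rests on its brighter probe. The dimmer probe went the opposite way, -0.53 ± 0.12 (adjusted p = 0.0131), and the mean of both gave 0.02 (adjusted p = 0.937). With either Trem2-/- recovery library left out, the brighter probe gave 0.49 (adjusted p = 0.0619), and over all settings the adjusted p ran from 0.000607 to 0.937. A direction for Glo1 between feeding times is therefore not given by these data, while the genotype difference had the same sign in both probes. Apobec2 stood at -0.36 (adjusted p = 0.0878) and H2-T24 at -0.36 (adjusted p = 0.155). The H2-T24 value was -0.59 and passed (adjusted p = 0.0316) when either WT cuprizone library was left out, with 0.0316 to 0.455 over all settings. Leaving out either library of a group is the same fit here, since the library left has no partner at the other feeding time. The other 5 genes lay between -0.30 and -0.01.

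By Pearson r, given as a description over arrays that share genotype, diet and run, the genes most like each member were Ndufa13 and Ddx49 for Olfr110 (0.93 each), and Rps18 (0.95) and Alcam (0.91) for Olfr111. They were Aprt and Rell1 for H2-M3 (0.95 each), Hmox2 (0.93) and Sephs1 (0.92) for H2-T24, and Ppp2r1b (0.95) and Edem1 (0.94) for Glo1. For Apobec2 they were Garnl3 and Arhgap32 (0.94 each), for Treml1 Nupr1 (0.92) and Myo18a (0.91), and for Treml2 Dkc1 and Isoc2b (0.90 each). Of these 16 genes only Rps18, a ribosomal protein gene, lies on chromosome 17. Across the same arrays the r of the 8 genes with Trem2 itself was highest for Olfr111, 0.97, and lowest for Glo1, -0.88, and it was -0.33 for Treml1 and 0.43 for Treml2.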

How the data were processed

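The deposited table holds linear intensity values, 1 for each probe and array. The steps by which the authors summarized and normalized these intensities are among those not given in the sources used here, and neither is the genome build. Log2 was taken with no further scaling. Of 24567 probes, 21259 name 1 gene in the platform's annotation, 1274 name several, none of them one of the 8 genes, and 2034 are not listed there. The brightest probe stood for a gene. Genes with at least 2 arrays above the table's median of 5.27 (38.5 as linear intensity) were tested. The 10 samples were grouped by genotype and diet from the labels. Every model was fitted with limma 3.58.1 in R 4.3.3 by lmFit and eBayes, with Benjamini-Hochberg adjustment over all 10792 genes and a threshold of 0.05.

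The genotype comparison had the diet condition as a block (4 residual degrees of freedom). Constancy over diets was a moderated F-test of 2 interaction contrasts among 6 group means (4), and constancy over runs a genotype by run term (3). Diet contrasts were additive with genotype (6), and 12 against 4 weeks used 8 arrays (3). The spread of a lone control was taken to be that of the other groups. The fit of 6 group means and the diet contrasts pooled 4-week and 12-week arrays, so the run was part of their error. The scripts were tested on simulated data.

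The genes and all lists were chosen with earlier results of these data known. Genes named besides the 8 were Trem2, the nearest measured neighbours in the RefSeq order (GRCm38.p6), list members, the 2 genes with the highest r to each, and, chosen after their values were seen, the other chromosome 17 genes whose genotypes did not overlap. Alternatives covered probes, filter, scaling, offset, variance prior, blocks, the library with conflicting labels and left-out libraries. The precision is limited by the number of arrays.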

Additional observations from a re-analysis of the deposited data

Results flagged for a closer look

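Treml1 and Treml2 had genotype differences of opposite sign in the runs of sample numbers, every condition of a run going the same way. In the second run this rests in part on values near 0. Treml1 differed there by -0.14 on cuprizone and -0.02 in recovery, and Treml2 by 0.05 and 0.70. For Treml1 the Trem2-/- minus WT difference in the second run minus that in the first was -0.4381, and for Treml2 it was 1.3915. Neither passed limma's test of the difference itself (adjusted p = 0.775 and 0.536), and the second run holds 2 conditions.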

How the results depend on the processing

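The number of arrays and dim Trem2-/- signals limit these results, feeding time and run cannot be told apart, and each condition has 1 array per genotype. The genotype differences of Trem2 and the 8 genes kept their sign under all 14 to 16 settings each. For Trem2 and the 6 called genes a left-out pair could not change it, since each has 1 sign in 5 of 5 conditions. That sign is part of what chose the 6. Olfr111 lay between -2.92 and -2.22, Glo1 between 0.90 and 1.20 and Apobec2 between 0.80 and 1.12. H2-T24 lay between 0.74 and 0.95, H2-M3 between -0.86 and -0.70 and Olfr110 between -1.01 and -0.61. Treml1 lay between 0.13 and 0.26, and Treml2 between -0.75 without the 12-week recovery pair and -0.18 without the 4-week cuprizone pair. For these 2 genes the kept sign is that of a mean over runs with opposite signs. The calls did not all hold: Olfr111 was called under 14 of 14 alternatives, Apobec2 under 11, H2-T24 under 10 and H2-M3 under 9 of 14, Glo1 under 9 of 15 and Olfr110 under 6 of 13. Olfr110 was not tested with at least 5 arrays above the median. The count of genotype calls, 28, was 44 with no filter, 54 with 16 added before log2, 62 with a trended robust prior, 8 with no replicate block, 8 with the conflicting library counted as 4 weeks, and 8 to 103 with a pair left out (103 without the control pair). The labels give no replicate numbers, and the genotype comparison was paired by diet condition, which served as its block.

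The F-test's count of 0 was 2 with titled duration as a block, 1 with the conflicting library then counted as 4 weeks, and 0 with any library left out. It could not be run without a control. For the genotype by run term, left-out pairs gave 0 to 2 calls, with Olfr110 at -0.21 to 0.37 and H2-M3 at -0.19 to 0.45. Cuprizone minus control gave 25 calls with titled duration as a block (H2-T24 0.12, Glo1 -0.066) and 0 to 3 with a library left out (H2-T24 -0.18 to 0.066, Glo1 -0.15 to 0.58). Recovery minus cuprizone gave 1 call with the duration block and 0 with any library left out, where Apobec2 spanned -0.17 to 0.10, Glo1 -0.20 to 0.13, Treml1 -0.067 to 0.17 and Trem2 -0.20 to 0.028. At 12 against 4 weeks the count was 1064 to 1621 with a library left out, where Treml1 spanned -0.17 to 0.19, Treml2 -0.65 to 0.0083 and Olfr111 -0.22 to 0.23. Quantile normalization gave Treml1 0.057, 16 added gave Olfr111 0.019, leaving out the conflicting library gave Treml1 0.19, and the dimmer probe, a setting chosen after seeing the data, gave Glo1 -0.53. The cause of these changes was not tested.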
